A study of Mus musculus with 13 samples.

Results

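Myc and 37 genes of ribosome biogenesis, 38 listed genes in all, were followed across 13 samples of mouse rectum. The genes were chosen by name for their known roles, but with earlier results of these data known. Of them 37 were measured, out of 19938 named genes on the array. Noc2l was not measured, because no transcript cluster (a set of probes read as 1 value) was listed under its name. For each gene, the cluster with the highest mean over the 13 arrays was used.

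Each sample was hybridised to 1 Affymetrix Mouse Gene 1.0 ST array, and all levels below are deposited log2 values, so a difference of 1 is a 2-fold change. There were 5 rectal adenocarcinomas, from α6fl/fl Villin-Cre mice aged 53, 60, 60, 64 and 80 weeks (2 female, 3 male), and 4 samples of the inflamed mucosa beside such tumours, from mice of this genotype aged 53, 60, 60 and 64 weeks (1 female, 3 male). In these animals Cre, driven by the Villin promoter, deletes the floxed α6 integrin gene in the intestinal epithelium, so other cells of the tissue keep it. There were 4 samples of normal rectal mucosa, from control mice aged 53, 60, 64 and 70 weeks (2 female, 2 male). One label field gives these 4 samples the floxed Villin-Cre genotype too, whereas another field and the design text call them controls, and they are called normal mucosa here. Tumour and inflamed tissue was dissected from cryosections of rectal prolapses, while normal mucosa was scraped, so disease and the way of collecting tissue cannot be told apart in either comparison with normal mucosa. Age or sex differs between most samples of a group, but nothing states that the 2 males of 60 weeks, in tumour and in inflamed mucosa, are separate mice, so p-values measure the spread between these samples, which may in part be technical.

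Ribosome biogenesis begins in the nucleolus, where RNA polymerase I transcribes the ribosomal RNA precursor. Small nucleolar RNA-protein particles (snoRNPs) modify that precursor, and assembly factors cut it, fold it and join it to ribosomal proteins until a small and a large subunit leave the nucleus. Myc, a transcription factor that binds DNA together with its partner Max, is known to activate many of these genes, and in the intestine it is expressed in dividing crypt cells and is a target of Wnt signalling.

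Array medians over all clusters lay between 6.41 and 6.59. The targeted gene Itga6 lay between 11.44 and 11.62 in the adenocarcinomas, between 10.90 and 11.20 in inflamed mucosa and between 10.75 and 11.16 in normal mucosa, but the deleted part of the gene is not stated and cells outside the epithelium carry the transcript, so these levels do not check the labels. The epithelial marker list (10 genes, Epcam and keratins among them) averaged 11.95 to 12.01 in the adenocarcinomas, 11.74 to 11.92 in inflamed mucosa and 12.04 to 12.21 in normal mucosa, with 1 gene higher and 4 lower in tumour, and 5 lower in inflamed mucosa, than in normal mucosa. Mature colonocyte genes averaged 8.54 to 9.85 in the adenocarcinomas, 11.33 to 11.48 in inflamed mucosa and 12.11 to 12.39 in normal mucosa. In tumour 9 of 9 were lower than in normal mucosa, while in inflamed mucosa 5 of 9 were lower and 4 were not called. Smooth muscle genes averaged 8.50 to 8.77 in the adenocarcinomas, 10.15 to 11.13 in inflamed mucosa and 6.5 to 7.96 in normal mucosa, with 8 of 10 called higher in tumour and 10 of 10 in inflamed mucosa than in normal mucosa. Fibroblast (10 of 10), endothelial (8 of 8) and macrophage genes (8 of 9 in tumour, 9 of 9 in inflamed mucosa) were also higher than in normal mucosa in both tissues. Neutrophil genes were higher in tumour (8 of 8, against 1 of 8 in inflamed mucosa), and B and plasma cell genes in inflamed mucosa (7 of 7, against 3 of 7 in tumour). In T and NK cell genes 3 of 8 were lower in tumour than in normal mucosa, and in inflamed mucosa 1 was higher and 1 lower. Of 6 enteric nerve genes, 2 were higher in tumour and 5 in inflamed mucosa than in normal mucosa. By the rule for a call given below, 16.4% of all genes were higher and 19.4% lower in tumour than in normal mucosa. In inflamed mucosa 13.7% were higher and 13% lower, and list counts of 1 gene lie near these shares. Between tumour and inflamed mucosa, 9 of 10 smooth muscle genes and 6 of 9 mature colonocyte genes were lower in tumour, and 7 of 8 neutrophil genes were higher. Over all genes 4.21% were lower and 2.91% higher there. Epcam differed by -0.20 ± 0.09 in tumour against normal mucosa (adjusted p = 0.103), Acta2 by 3.50 ± 0.48 (adjusted p = 9.64e-05), and Myh11 by 1.48 ± 0.25 in tumour and 4.19 ± 0.26 in inflamed mucosa (adjusted p = 0.000461 and 5.38e-07). T and NK cell genes averaged 5.59 to 5.88 in the adenocarcinomas, 6.01 to 6.33 in inflamed mucosa and 5.87 to 7.41 in normal mucosa. Neutrophil genes averaged 5.59 to 6.93 in normal mucosa. Normal mucosa 1 held the highest normal value of both lists, with 5.98 and 5.78 as the nearest. Array medians over all genes averaged 7.06, 7.12 and 6.93 in the 3 groups, so most of these levels lay below them. The part of these cell types in the results below was not tested, and in bulk tissue fewer cells of a type and less RNA per cell cannot be told apart.

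Transcripts of Myc and of nearly all measured ribosome biogenesis genes were higher in the adenocarcinomas than in normal mucosa. A gene is called where the Benjamini-Hochberg adjusted p of limma, over all 19938 genes, is below 0.05. By that rule 34 of the 37 genes were higher in tumour and 0 were lower, where 16.4% of all genes were called higher and 19.4% lower, 35.8% in all. The exceptions were Polr1b, Ubtf and Tsr1. The median difference was 0.86 over the 37 genes and -0.10 over all genes. With each array centred on its own median, which moved the median of all genes to -0.24 and the calls to 12.5% higher and 43.2% lower, 32 of the 37 were called higher, with a median of 0.73. For 32 of the 37, every tumour array lay above every normal array, as for 13% of all genes.

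Inflamed mucosa was also higher for most of these genes, against the same 4 normal arrays. There 32 of the 37 genes were called higher than in normal mucosa and 0 lower, where 13.7% of all genes were called higher and 13% lower. The median difference was 0.66 over the 37 genes and -0.10 over all genes (limma, n = 4 and 4). With each array centred on its median, which moved the median of all genes to -0.29 and the calls to 9.4% higher and 47.7% lower, 25 of the 37 were called higher, with a median of 0.47. For 27 of the 37 every inflamed array lay above every normal array, as for 12% of all genes. Not called were Ubtf, Tsr1, Rrp9, Rrp12 and Rrs1.

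Between the adenocarcinomas and the inflamed mucosa beside them, 0 of the 37 genes were called in either direction, where 2.91% of all genes were called higher and 4.21% lower. With the numbered pairs of tumour and inflamed arrays as a random block 3 of the 37 were called higher, where 4.7% of all genes were higher and 6.73% lower. With the numbers of all arrays, normal ones included, as a fixed block 0 were. At an unadjusted p below 0.05 there were 9 of the 37 higher and 0 lower in tumour, where 8.28% of all genes were higher and 11.2% lower. Differences were positive for 28 of the 37 (9680 of 19938 genes), with a median of 0.17 over the 37 genes. The normal arrays serve in both of the comparisons above, which are therefore not independent of each other. The map of levels by array sets the genes side by side.

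**Figure D1:**
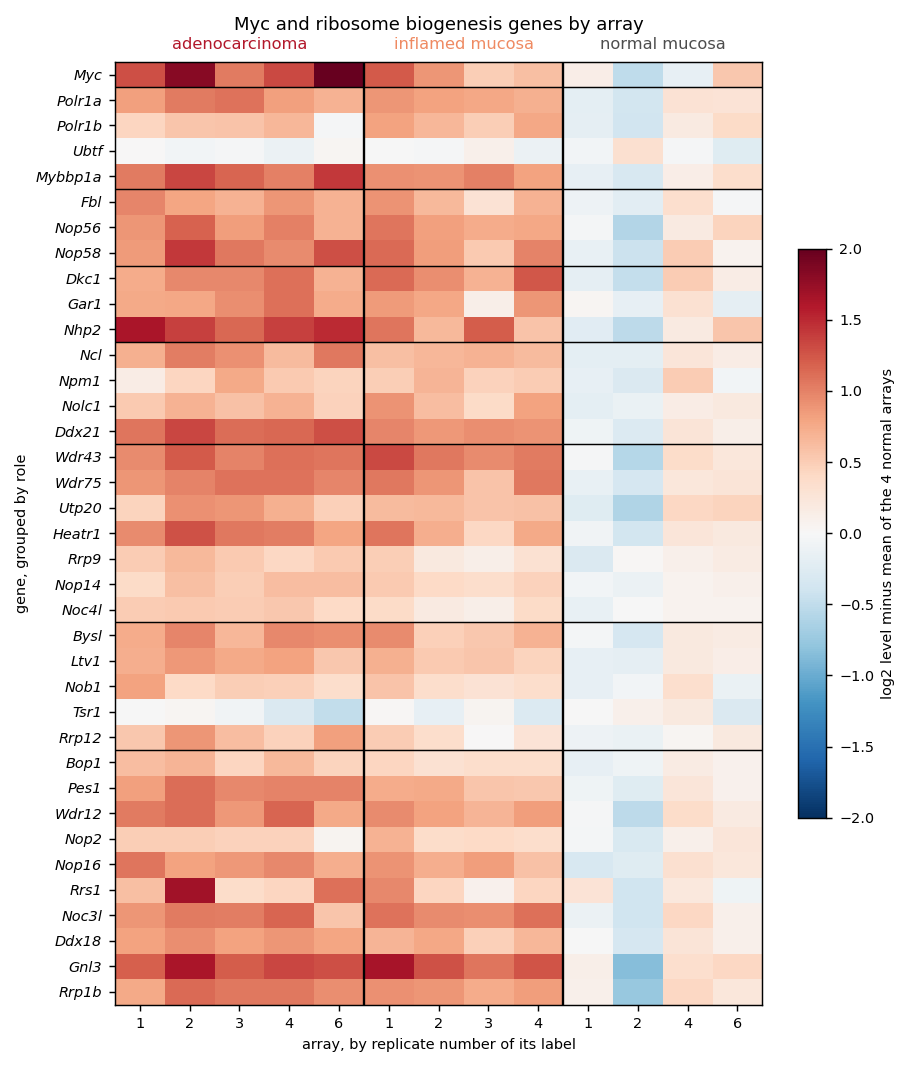
Log2 level of each of the 37 measured genes (rows, grouped by role) on each of the 13 arrays (columns, by group and replicate number), minus the mean of the 4 normal arrays. Red cells, above the normal mean, fill most of the adenocarcinoma and inflamed columns, while the rows of Ubtf and Tsr1 do not turn red. Normal mucosa 2 is the bluest normal column.

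Sequences at the gene starts are shown because Myc-Max dimers bind the E-box CACGTG. RefSeq windows of 250 bases before to 50 bases after a start site (assembly GRCm38.p6) were held for 32 of the 38 genes, and those without one were Bop1, Fbl, Myc, Npm1, Rrp12 and Rrs1. CACGTG, which reads the same on both strands, was found in the windows of 7 of the 32 genes (21.9%), against 9.5% of the 15614 measured genes that have a window. These are the 7 matches with up to 12 bases on each side, given 5′ to 3′ on the strand of the gene with the E-box in capitals.
Nop2, chr6:125131811-125131840, plus strand: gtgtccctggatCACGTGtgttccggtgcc
Ltv1, chr10:13193092-13193121, minus strand: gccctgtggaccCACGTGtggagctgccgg
Utp20, chr10:88826765-88826789, minus strand: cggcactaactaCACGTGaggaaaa
Pes1, chr11:3963965-3963994, plus strand: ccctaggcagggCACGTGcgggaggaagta
Mybbp1a, chr11:72441355-72441376, plus strand: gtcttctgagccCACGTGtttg
Tsr1, chr11:74898092-74898121, plus strand: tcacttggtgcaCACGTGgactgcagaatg
Wdr43, chr17:71616220-71616249, plus strand: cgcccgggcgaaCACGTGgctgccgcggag

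The E-box of Nop2 began 60 bases before the start site, and the other 6 lay after it. Of these 7 genes, 6 were higher in tumour than in normal mucosa, with a median difference of 0.74, and of the 24 measured genes with a window and no CACGTG, 22 were higher, with a median of 0.89. The exception among the 7 was Tsr1. In inflamed against normal mucosa the medians were 0.61 over the 7 and 0.75 over the 24. CCGGAA, the core to which ETS-family factors bind, searched on both strands, was in the windows of 12 of the 32 genes (37.5%), against 22.0% of measured genes. Of the box C/D pair Nop56 and Nop58, chosen for display, Nop56 had no match in its window. Nop58 had 2 matches, and the second, shown here, is on the strand of the gene.
Nop58, chr1:59684897-59684926, plus strand: ggcgggaaaaacCCGGAAatgatctcacgc

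TATAAA, the TATA box, also searched on both strands, was in 2 of the 32 (6.25%), against 13.6%. No letters of one motif can overlap another. The windows of the listed genes had a median GC content of 59.3%, against 57.3% for those of measured genes. A match describes these letters only and says nothing of binding in this tissue.

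Myc itself reached log2 levels of 9.93, 10.47, 9.68, 9.97 and 10.75 in adenocarcinomas 1, 2, 3, 4 and 6, 9.87, 9.53, 9.14 and 9.24 in inflamed mucosa 1, 2, 3 and 4, and 8.78, 8.14, 8.48 and 9.19 in normal mucosa 1, 2, 4 and 6. All 5 tumours lay above all 4 normal samples, inflamed mucosa 3 lay just below normal mucosa 6, and inflamed mucosa 1 lay above adenocarcinoma 3. Myc was 2.86-fold higher in tumour than in normal mucosa, a log2 difference of 1.52 ± 0.24 (± SE, limma, adjusted p = 0.000324, n = 5 and 4). The direction and the call held under each of the 25 alternatives tried. In inflamed against normal mucosa the difference was 0.80 ± 0.26 (1.74-fold, adjusted p = 0.0339). This call was lost without inflamed mucosa 1 (0.66, adjusted p = 0.0917) and without inflamed mucosa 2 (0.77, adjusted p = 0.0801), and likewise when normal mucosa 2 (0.63, adjusted p = 0.11) or normal mucosa 4 (0.74, adjusted p = 0.068) was left out. Centring arrays on their median also ended it (0.61, adjusted p = 0.0564).

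Tumour against inflamed mucosa gave a Myc difference of 0.72 ± 0.24 (95% interval 0.20 to 1.24, adjusted p = 0.0976), which did not pass. Differences within the 4 pairs of tumour and inflamed sample with 1 number were 0.07, 0.95, 0.54 and 0.73 in pairs 1, 2, 3 and 4. With these pairs as a random block the Myc difference was 0.67 ± 0.21 and passed (adjusted p = 0.0487). With array weights it was 0.70 ± 0.21 and passed too (limma, adjusted p = 0.0456). The strip plots set Myc beside the mean of the 37 genes, Ddx21 and Tsr1.

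**Figure D2:**
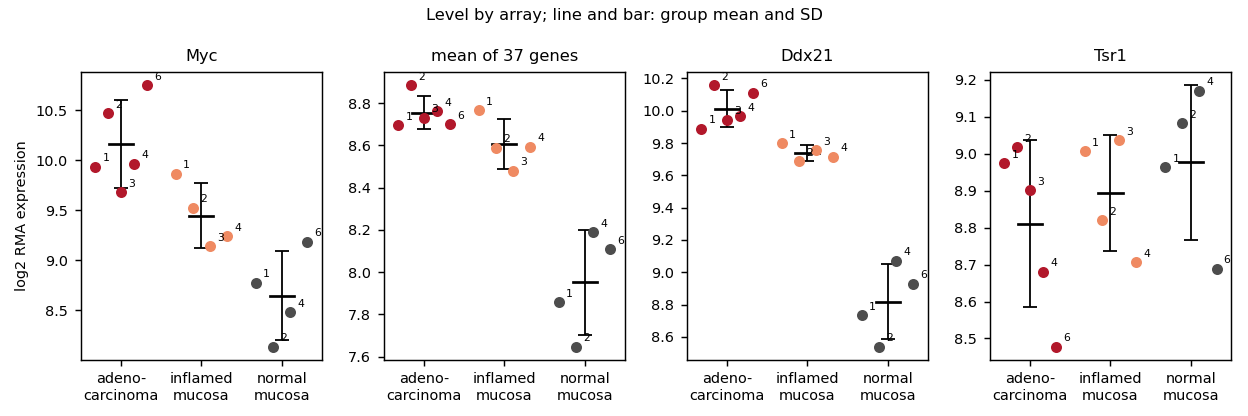
Log2 level (vertical axes, not starting at 0) on each array for Myc, for the mean of the 37 genes, and for Ddx21 and Tsr1, in the adenocarcinomas, inflamed mucosa and normal mucosa from left to right. Points carry replicate numbers, and the line and bar are the group mean and SD (n = 5, 4 and 4). Myc averages 10.16 in tumour, 9.44 in inflamed mucosa and 8.64 in normal mucosa, and the Tsr1 groups overlap.

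The mean of the 37 genes was 8.70, 8.89, 8.73, 8.76 and 8.70 in the adenocarcinomas 1, 2, 3, 4 and 6, 8.77, 8.59, 8.48 and 8.59 in inflamed mucosa 1, 2, 3 and 4, and 7.86, 7.65, 8.19 and 8.11 in normal mucosa 1, 2, 4 and 6. Every tumour and every inflamed sample lay above every normal sample, and inflamed mucosa 1 lay within the range of the tumours. Within groups the genes tended to be high or low on the same arrays. Adenocarcinoma 2 had the highest tumour level for 18 of the 37 genes, inflamed mucosa 1 the highest inflamed level for 24 and inflamed mucosa 3 the lowest for 24, and normal mucosa 2 the lowest normal level for 27. Such counts were not made over all genes, so whether this is particular to the 37 was not tested. The median SD over the genes was 0.17 in tumour, 0.14 in inflamed mucosa and 0.28 in normal mucosa, against 0.16, 0.14 and 0.19 over all genes. Without normal mucosa 2, 31 genes were called higher in tumour and 26 in inflamed mucosa than in normal mucosa, with medians of 0.73 and 0.58.

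RNA polymerase I transcription was represented by 4 genes, of which 2 were higher in tumour and 3 in inflamed mucosa than in normal mucosa. The shares over all genes were 16.4% and 13.7%. Polr1a, the largest subunit of the polymerase, was measured at 8.39, 8.61, 8.66, 8.40 and 8.26 in adenocarcinomas 1, 2, 3, 4 and 6, 8.45, 8.38, 8.36 and 8.28 in inflamed mucosa 1, 2, 3 and 4, and 7.38, 7.20, 7.87 and 7.85 in normal mucosa 1, 2, 4 and 6. Its tumour and inflamed arrays lay above all normal arrays, by 0.89 ± 0.14 in tumour (adjusted p = 0.000239) and 0.79 ± 0.14 in inflamed mucosa (adjusted p = 0.00139). Mybbp1a, a nucleolar protein that takes part in ribosomal RNA synthesis and processing and whose E-box is shown above, was measured at 9.39, 9.68, 9.51, 9.35 and 9.77 in adenocarcinomas 1, 2, 3, 4 and 6, 9.26, 9.25, 9.35 and 9.15 in inflamed mucosa 1, 2, 3 and 4, and 8.18, 8.02, 8.49 and 8.70 in normal mucosa 1, 2, 4 and 6. The groups did not overlap in either comparison with normal mucosa, and the differences were 1.19 ± 0.13 in tumour (adjusted p = 1.62e-05) and 0.90 ± 0.14 in inflamed mucosa (adjusted p = 0.000409).

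The other 2 genes of this step behaved differently. Polr1b, the second-largest subunit, was measured at 8.94, 9.07, 9.09, 9.17 and 8.49 in adenocarcinomas 1, 2, 3, 4 and 6, 9.31, 9.18, 9.01 and 9.29 in inflamed mucosa 1, 2, 3 and 4, and 8.34, 8.13, 8.69 and 8.89 in normal mucosa 1, 2, 4 and 6. Adenocarcinoma 6 lay within the normal range, and the other 4 tumours lay above it. The tumour difference of 0.44 ± 0.16 did not pass (adjusted p = 0.0504), but did so when adenocarcinoma 6 (0.55, adjusted p = 0.0126), normal mucosa 4 (0.50, adjusted p = 0.0482) or normal mucosa 6 (0.56, adjusted p = 0.0165) was left out, and without dim genes, with a variance trend or with array weights (0.42 to 0.44), while inflamed mucosa was higher than normal by 0.69 ± 0.17 (adjusted p = 0.0104). Ubtf, which binds ribosomal DNA and recruits the polymerase, was measured at 10.18, 10.11, 10.13, 10.05 and 10.20 in adenocarcinomas 1, 2, 3, 4 and 6, 10.15, 10.14, 10.26 and 10.05 in inflamed mucosa 1, 2, 3 and 4, and 10.11, 10.48, 10.13 and 9.93 in normal mucosa 1, 2, 4 and 6. All 3 groups overlapped. The Ubtf difference was -0.03 ± 0.10 in tumour (95% interval -0.24 to 0.19) and -0.01 ± 0.11 in inflamed mucosa (95% interval -0.24 to 0.21).

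All 6 listed genes for core proteins of the modifying snoRNPs were called higher in both tissues than in normal mucosa. Over all genes 16.4% were higher in tumour and 13.7% in inflamed mucosa. Fbl, the methyltransferase of box C/D particles, and its scaffold proteins Nop56 and Nop58 differed by 0.81, 0.92 and 1.11 in tumour and by 0.64, 0.85 and 0.87 in inflamed mucosa (limma, adjusted p at most 0.000934 in tumour and 0.005 in inflamed mucosa). Nop58 was measured at 7.88, 8.44, 8.08, 7.96 and 8.31 in adenocarcinomas 1, 2, 3, 4 and 6, 8.16, 7.86, 7.55 and 8.01 in inflamed mucosa 1, 2, 3 and 4, and 6.87, 6.59, 7.54 and 7.10 in normal mucosa 1, 2, 4 and 6. Inflamed mucosa 3, the lowest inflamed array, lay just above normal mucosa 4, the highest normal array, and normal mucosa 2 was the lowest of the 13.

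Of the box H/ACA particles, which convert uridine to pseudouridine, the synthase Dkc1 and the core proteins Gar1 and Nhp2 were among the 37. Nop10 is given further below with the other snoRNP genes. Nhp2 was at 9.08, 8.80, 8.59, 8.81 and 8.93 in adenocarcinomas 1, 2, 3, 4 and 6, 8.51, 8.08, 8.65 and 8.01 in inflamed mucosa 1, 2, 3 and 4, and 7.22, 6.92, 7.63 and 8.003 in normal mucosa 1, 2, 4 and 6. Every tumour and inflamed array lay above every normal array, with inflamed mucosa 4 only just above normal mucosa 6, and inflamed mucosa 3 lay within the range of the tumours. Its difference was 1.40 ± 0.20 in tumour (2.64-fold, adjusted p = 0.000132), the largest of the 37 after Myc, and 0.87 ± 0.21 in inflamed mucosa (adjusted p = 0.00834). Dkc1 differed by 0.89 ± 0.17 in tumour (adjusted p = 0.0015) and 1.00 ± 0.18 in inflamed mucosa (adjusted p = 0.00151). For Gar1 the values were 0.86 ± 0.16 (adjusted p = 0.000838) and 0.65 ± 0.16 (adjusted p = 0.0108), with inflamed mucosa 3 at 8.85, inside the normal range of 8.56 to 9.04, and the other inflamed arrays at 9.50 to 9.62.

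All 4 listed genes for abundant nucleolar proteins were called higher in tumour and in inflamed mucosa, where 16.4% and 13.7% of all genes were. Ddx21, an RNA helicase of ribosomal RNA transcription and processing, was measured at 9.89, 10.16, 9.94, 9.97 and 10.11 in adenocarcinomas 1, 2, 3, 4 and 6, 9.80, 9.69, 9.76 and 9.71 in inflamed mucosa 1, 2, 3 and 4, and 8.73, 8.54, 9.07 and 8.93 in normal mucosa 1, 2, 4 and 6. Its 3 groups did not overlap at all, and the tumour difference of 1.20 ± 0.10 had the smallest adjusted p of the 37 genes (1.78e-06). Inflamed mucosa was higher than normal by 0.92 ± 0.11 (adjusted p = 4.77e-05). Ncl, or nucleolin, which binds the nascent precursor, was higher by 0.87 ± 0.12 in tumour (adjusted p = 8.07e-05) and 0.65 ± 0.12 in inflamed mucosa (adjusted p = 0.00174). Nolc1, a chaperone of snoRNPs, was higher by 0.59 ± 0.12 in tumour (adjusted p = 0.00168) and 0.68 ± 0.13 in inflamed mucosa (adjusted p = 0.00152). Npm1, or nucleophosmin, was measured at 9.11, 9.38, 9.72, 9.48 and 9.40 in adenocarcinomas 1, 2, 3, 4 and 6, 9.45, 9.64, 9.42 and 9.47 in inflamed mucosa 1, 2, 3 and 4, and 8.80, 8.67, 9.47 and 8.90 in normal mucosa 1, 2, 4 and 6. Normal mucosa 4 overlapped the other groups, and the differences were 0.46 ± 0.15 (adjusted p = 0.0301) and 0.54 ± 0.16 (adjusted p = 0.0246). Neither Npm1 call held with centred arrays (0.33 in tumour, 0.35 in inflamed mucosa), with the fixed block (0.43 and 0.49), with array weights (0.38 and 0.44) or without normal mucosa 2 (0.37 in tumour, adjusted p = 0.103, and 0.44 in inflamed mucosa, adjusted p = 0.08). The tumour call was also lost with 2 groups alone (0.46) and without adenocarcinoma 2, 3 or 4 or normal mucosa 1 or 6 (0.39 to 0.47), and the inflamed call without inflamed mucosa 2 or normal mucosa 1 (0.49 and 0.48). Other clusters name Npm1 together with a predicted gene and were not used, so near-identical copies of this gene may share its probes.

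The 7 listed genes of the small subunit processome, the large particle that makes the first cuts in the precursor, were all higher in tumour. In inflamed mucosa 6 of them were, and the shares over all genes were 16.4% and 13.7%. Wdr43, Wdr75 and Heatr1 belong to the module that binds the precursor first. Wdr43 was measured at 8.89, 9.16, 8.94, 9.03 and 9.02 in adenocarcinomas 1, 2, 3, 4 and 6, 9.27, 9.0, 8.88 and 8.97 in inflamed mucosa 1, 2, 3 and 4, and 7.91, 7.37, 8.31 and 8.17 in normal mucosa 1, 2, 4 and 6. Every tumour and inflamed array lay well above the highest normal array, and tumour and inflamed arrays overlapped. The differences were 1.07 ± 0.16 in tumour (adjusted p = 0.000169) and 1.09 ± 0.17 in inflamed mucosa (adjusted p = 0.000354). Wdr75 differed by 1.00 in tumour and 0.89 in inflamed mucosa, and Heatr1 by 1.02 and 0.74 (adjusted p at most 0.000158 in tumour and 0.00373 in inflamed mucosa).

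The remaining processome genes had smaller differences in tumour. Utp20, a large scaffold protein, differed by 0.69 ± 0.19 in tumour (adjusted p = 0.0127) and 0.61 ± 0.20 in inflamed mucosa (adjusted p = 0.0369), where the call was lost with centred arrays (0.42), with 2 groups alone, the fixed block, sex as a covariate or array weights (0.48 to 0.62), without any 1 inflamed array (0.60 to 0.62) and without normal mucosa 1 (0.53) or 2 (0.41). Nop14 and Noc4l, which act as partners, differed by 0.54 ± 0.08 (adjusted p = 0.000171) and 0.49 ± 0.08 (adjusted p = 0.000468) in tumour and by 0.43 ± 0.08 (adjusted p = 0.00229) and 0.27 ± 0.09 (adjusted p = 0.037) in inflamed mucosa. With arrays centred on their median the inflamed difference of Nop14 was 0.24 (adjusted p = 0.037) and that of Noc4l 0.08 (adjusted p = 0.499), which ended the Noc4l call. That call was also lost after cyclic loess (0.22), with the fixed block, sex as a covariate, 2 groups alone or a variance trend (0.26 to 0.28), without adenocarcinoma 2 (0.27), without inflamed mucosa 1, 2 or 4 (0.23, 0.30 and 0.23) and without normal mucosa 1 or 2 (0.22 and 0.27). Rrp9, a protein of the snoRNP that guides the first cuts, was measured at 7.91, 8.06, 7.94, 7.82 and 7.93 in adenocarcinomas 1, 2, 3, 4 and 6, 7.90, 7.61, 7.53 and 7.71 in inflamed mucosa 1, 2, 3 and 4, and 7.12, 7.43, 7.52 and 7.57 in normal mucosa 1, 2, 4 and 6. Its tumour arrays lay above all normal arrays, while inflamed mucosa 3 lay inside the normal range. The Rrp9 difference was 0.52 ± 0.10 in tumour (adjusted p = 0.0017), and that of 0.28 ± 0.11 in inflamed mucosa did not pass (adjusted p = 0.0735), but did so without normal mucosa 6 (0.33, adjusted p = 0.0477).

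Of the 5 listed late maturation factors of the small subunit, 4 were higher in tumour and 3 in inflamed mucosa, where 16.4% and 13.7% of all genes were. Bysl and Ltv1, which travel with the pre-subunit, differed by 0.85 and 0.74 in tumour and by 0.66 and 0.56 in inflamed mucosa (adjusted p at most 0.0002 and 0.003). Centring reduced the inflamed difference of Ltv1 to 0.37 (adjusted p = 0.0171). Nob1, the nuclease that makes the final cut, differed by 0.50 ± 0.12 (adjusted p = 0.00546) and 0.40 ± 0.13 (adjusted p = 0.0341), and the inflamed call was lost with arrays centred on their median (0.21, adjusted p = 0.212). It was also lost with the fixed block, 2 groups alone or array weights (0.36 to 0.40), without inflamed mucosa 1, 2 or 4 (0.33 to 0.41) and without normal mucosa 1, 2 or 6 (0.34 to 0.38). Rrp12, an export factor, was higher in tumour by 0.67 ± 0.12 (adjusted p = 0.000804), and its inflamed difference of 0.28 ± 0.13 did not pass (adjusted p = 0.106), but did so without inflamed mucosa 3 (0.38, adjusted p = 0.0417).

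Tsr1, a GTPase-like factor that binds the late pre-subunit, was measured at 8.97, 9.02, 8.90, 8.68 and 8.48 in adenocarcinomas 1, 2, 3, 4 and 6, 9.01, 8.82, 9.04 and 8.71 in inflamed mucosa 1, 2, 3 and 4, and 8.96, 9.08, 9.17 and 8.69 in normal mucosa 1, 2, 4 and 6. The 3 groups overlapped, and adenocarcinoma 6 was the lowest of the 13 samples. The difference was -0.17 ± 0.13 in tumour (95% interval -0.45 to 0.11, adjusted p = 0.32) and -0.08 ± 0.14 in inflamed mucosa (95% interval -0.38 to 0.21, adjusted p = 0.651). These intervals do not reach the median difference of the 37 genes in either comparison.

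All 10 measured genes of large subunit assembly among the 37 were called higher in tumour, and 9 in inflamed mucosa, where 16.4% and 13.7% of all genes were. The inflamed call of 1 of them, Ddx18, depends on the cluster read, as given below. Pes1, Bop1 and Wdr12 form the PeBoW complex, which is needed to process the precursor of the large subunit RNAs. Pes1 was measured at 8.48, 8.78, 8.63, 8.66 and 8.67 in adenocarcinomas 1, 2, 3, 4 and 6, 8.41, 8.43, 8.22 and 8.21 in inflamed mucosa 1, 2, 3 and 4, and 7.58, 7.43, 7.91 and 7.75 in normal mucosa 1, 2, 4 and 6. Its 3 groups did not overlap, and the differences were 0.98 ± 0.10 in tumour (adjusted p = 1e-05) and 0.65 ± 0.11 in inflamed mucosa (adjusted p = 0.000742). Bop1 differed by 0.57 ± 0.09 in tumour (adjusted p = 0.000279) and 0.36 ± 0.09 in inflamed mucosa (adjusted p = 0.0131), where centring the arrays on their median ended the call (0.17, adjusted p = 0.175). Wdr12 differed by 0.99 ± 0.15 in tumour (adjusted p = 0.000239) and 0.82 ± 0.16 in inflamed mucosa (adjusted p = 0.00231). The cluster used for Wdr12 has numbered neighbours on chromosome 7, whereas the gene is on chromosome 1, and its other cluster gave 0.91 ± 0.15 (adjusted p = 0.000353) and 0.74 ± 0.16 (adjusted p = 0.00353).

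Gnl3, or nucleostemin, a nucleolar GTPase of stem and tumour cells, was measured at 8.21, 8.65, 8.24, 8.36 and 8.31 in adenocarcinomas 1, 2, 3, 4 and 6, 8.67, 8.30, 8.09 and 8.29 in inflamed mucosa 1, 2, 3 and 4, and 7.13, 6.17, 7.36 and 7.43 in normal mucosa 1, 2, 4 and 6. Every tumour and inflamed array lay above every normal array, normal mucosa 2 was the lowest, and tumour and inflamed arrays overlapped. Its differences were 1.33 ± 0.22 in tumour (2.52-fold, adjusted p = 0.00037) and 1.31 ± 0.23 in inflamed mucosa (2.49-fold, adjusted p = 0.001), and no other of the 37 had a larger inflamed difference. Rrs1, which takes part in loading a small ribonucleoprotein onto the large subunit, was measured at 6.60, 7.69, 6.37, 6.43 and 7.11 in adenocarcinomas 1, 2, 3, 4 and 6, 6.96, 6.43, 6.08 and 6.43 in inflamed mucosa 1, 2, 3 and 4, and 6.28, 5.61, 6.21 and 5.91 in normal mucosa 1, 2, 4 and 6. Adenocarcinoma 2 stood above the rest, and its SD of 0.56 in tumour was the largest of the 37 genes. The tumour difference of Rrs1 was 0.84 ± 0.26 (adjusted p = 0.0225), and this call needed normal mucosa 2 (0.70 without it, adjusted p = 0.0797), and its inflamed difference of 0.47 ± 0.27 did not pass (adjusted p = 0.194).

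Noc3l, Rrp1b and Nop16 are nucleolar proteins of large subunit assembly. Noc3l differed by 0.93 in tumour and 1.02 in inflamed mucosa, Rrp1b by 0.98 and 0.84, and Nop16 by 0.88 and 0.77 (adjusted p at most 0.000986 in tumour and 0.006 in inflamed mucosa). Nop2, an RNA methyltransferase of the large subunit, had the smallest called difference in tumour, 0.39 ± 0.13 (adjusted p = 0.0281), and differed by 0.45 ± 0.13 in inflamed mucosa (adjusted p = 0.024). Adenocarcinoma 6, at 8.64, lay within the normal range of 8.29 to 8.83, while the other 4 tumours lay between 9.05 and 9.08. Centring the arrays ended both calls of Nop2 (0.26 in tumour, adjusted p = 0.105, and 0.26 in inflamed mucosa, adjusted p = 0.114), as did the fixed block (0.39 and 0.44). The tumour call was also lost without adenocarcinoma 2, 3 or 4 (0.37 in each case) and without normal mucosa 1 or 2 (0.38 and 0.29), and the inflamed call without inflamed mucosa 1 (0.37) and without normal mucosa 2 (0.35). Ddx18, an RNA helicase, differed by 0.84 ± 0.11 in tumour (adjusted p = 5.6e-05) and 0.65 ± 0.11 in inflamed mucosa (adjusted p = 0.00109). Its cluster has neighbours mostly on chromosome 6, whereas the gene is on chromosome 1. The other cluster of Ddx18, whose neighbours are all on chromosome 1, gave 0.30 ± 0.08 in tumour (adjusted p = 0.00985) and 0.08 ± 0.08 in inflamed mucosa, which did not pass (adjusted p = 0.481). The mean of both clusters gave 0.36 in inflamed mucosa (adjusted p = 0.00721). The size of the Ddx18 difference and its inflamed call therefore depend on the cluster read. With the second clusters of Wdr12, Ddx18 and Fbl, 31 of the 37 genes were called higher in inflamed mucosa.

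**Figure D3:**
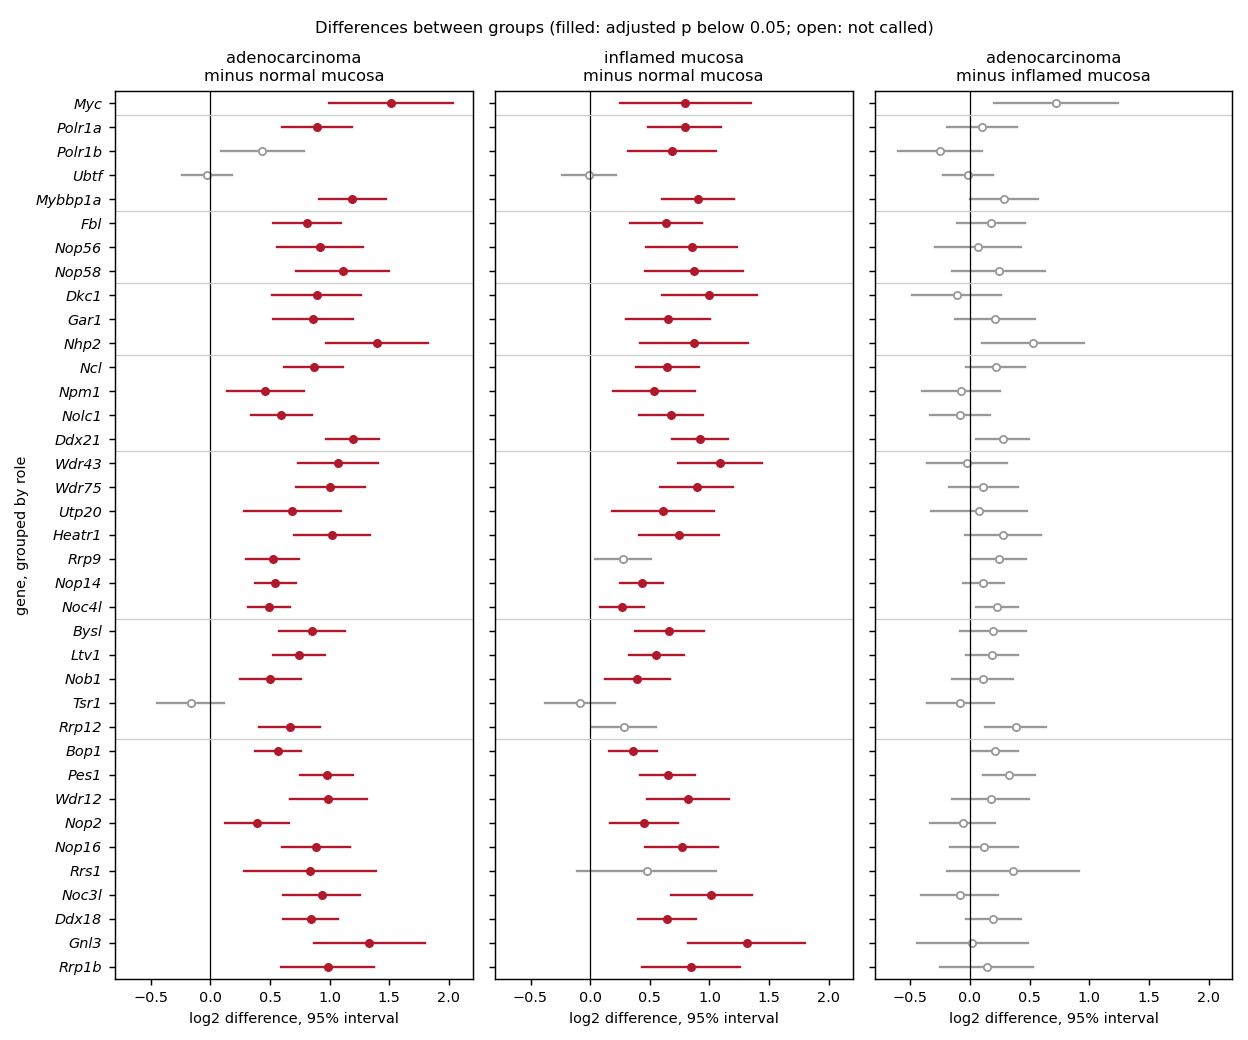
Log2 difference (points) and 95% interval (lines) of each of the 37 genes, grouped by role, for adenocarcinoma minus normal mucosa, inflamed mucosa minus normal mucosa and adenocarcinoma minus inflamed mucosa. Filled points passed an adjusted p of 0.05 and open points did not: 34, 32 and 0 are filled.

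For tumour against the adjacent inflamed mucosa the intervals show what the 9 arrays allow. The largest differences after Myc were those of Nhp2 (0.53 ± 0.20, adjusted p = 0.144), Rrp12 (0.38 ± 0.12, adjusted p = 0.0743), Rrs1 (0.36 ± 0.26, adjusted p = 0.523) and Pes1 (0.33 ± 0.10, adjusted p = 0.0753). Rrp12 passed without inflamed mucosa 1 (0.46, adjusted p = 0.0424) and Pes1 without normal mucosa 2 (0.33, adjusted p = 0.048). Pes1 also passed with the 2 groups alone (0.33, limma, adjusted p = 0.0384). With array weights 5 genes passed, where 4.92% of all genes were higher: Myc (0.70), Nhp2 (0.53), Ddx21 (0.30), Rrp12 (0.38) and Pes1 (0.35). Their adjusted p (limma) lay between 0.0167 and 0.0456. The most negative difference was that of Polr1b (-0.25 ± 0.16, adjusted p = 0.472). Intervals of Gnl3 (-0.45 to 0.48), Wdr43 (-0.36 to 0.31) and Dkc1 (-0.49 to 0.26) include 0. Tumour and inflamed arrays did not overlap for Ddx21, Noc4l, Bop1, Pes1 and Ddx18, all higher in tumour, which is 5 of 37 where 5.27% of all genes did so, and 0 were lower in this way, where 6.51% of all genes were.

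Within the 4 numbered pairs, tumour was higher than its inflamed partner for 17, 34, 34 and 30 of the 37 genes in pairs 1, 2, 3 and 4, against 50.3%, 50.1%, 41.5% and 48.6% of all genes. Pair 1 thus showed no shift of these genes toward tumour, with a median pair difference of -0.06, while the medians of pairs 2, 3 and 4 were 0.27, 0.22 and 0.15. In 14 of the 37 genes tumour was higher in all 4 pairs, Myc, Ddx21, Pes1 and Rrp12 among them, as in 13.6% of all genes. The 3 genes that passed with the pairs as a random block, and not with the numbers as a fixed block, were Myc (given above), Rrp12 (0.37 ± 0.11, adjusted p = 0.0347) and Pes1 (0.33 ± 0.09, adjusted p = 0.03).

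Max and the antagonists Mxd1 and Mxi1 were lower in both tissues than in normal mucosa, but not every antagonist was. Of 14 partners and antagonists of Myc measured, 1 was higher and 5 were lower in tumour than in normal mucosa, where 19.4% of all genes were lower. Differences were positive for 5 of the 14, against 7429 of 19938 genes. In inflamed against normal mucosa 0 were higher and 4 lower, where 13% of all genes were lower, and 1 was higher and 3 lower in tumour than in inflamed mucosa, where 4.21% of all genes were lower. Mga lay between 8.533 and 8.965 in inflamed mucosa, above the normal range of 8.053 to 8.512, without being called. Mxd4 and Mnt overlapped normal mucosa in both tissues. Every tumour and inflamed array of Mxd3 lay below every normal array. Max, the dimer partner that Myc needs to bind DNA, was measured at 10.81, 10.50, 10.80, 10.77 and 10.33 in adenocarcinomas 1, 2, 3, 4 and 6, 11.35, 11.27, 11.59 and 11.45 in inflamed mucosa 1, 2, 3 and 4, and 12.42, 12.35, 11.98 and 11.93 in normal mucosa 1, 2, 4 and 6. The 3 groups did not overlap, with the tumours lowest and normal mucosa highest. Max was 2.89-fold lower in tumour than in normal mucosa (-1.53 ± 0.13, limma, adjusted p = 1.91e-06), lower in inflamed than in normal mucosa (-0.76 ± 0.14, adjusted p = 0.00164) and lower in tumour than in inflamed mucosa (-0.77 ± 0.13, adjusted p = 0.00328). All 3 calls held under each of the 25 alternatives.

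Mxd1, which competes with Myc for Max and represses transcription in differentiated cells, was measured at 11.35, 10.87, 11.05, 11.09 and 10.91 in adenocarcinomas 1, 2, 3, 4 and 6, 11.80, 11.38, 11.83 and 11.72 in inflamed mucosa 1, 2, 3 and 4, and 12.61, 12.46, 12.16 and 12.12 in normal mucosa 1, 2, 4 and 6. The tumours lay below all inflamed arrays and these below all normal arrays. Its differences were -1.28 ± 0.13 in tumour and -0.66 ± 0.14 in inflamed mucosa against normal (adjusted p = 9.34e-06 and 0.00441), and -0.63 ± 0.13 in tumour against inflamed mucosa (adjusted p = 0.0119). Mxi1, of the same family as Mxd1, was lower than normal in tumour (-0.79 ± 0.14, adjusted p = 0.000642) and in inflamed mucosa (-0.57 ± 0.15, adjusted p = 0.0119). Mlxip, of the related nutrient-sensing branch of the network, was lower in tumour than in normal mucosa (-0.84 ± 0.09, adjusted p = 1.44e-05) and than in inflamed mucosa (-0.61 ± 0.09, adjusted p = 0.00151). These falls stood beside the lower mature colonocyte genes given above (9 of 9 in tumour, 5 of 9 in inflamed mucosa). The part of differentiated cells in these falls was not tested.

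Mycn, the paralog of Myc, was measured at 7.21, 7.20, 7.43, 8.18 and 7.84 in adenocarcinomas 1, 2, 3, 4 and 6, 6.88, 6.87, 6.81 and 6.86 in inflamed mucosa 1, 2, 3 and 4, and 6.55, 6.81, 7.04 and 7.10 in normal mucosa 1, 2, 4 and 6. The tumours lay above all other arrays, with adenocarcinomas 4 and 6 highest. The Mycn difference was 0.70 ± 0.18 in tumour against normal mucosa (adjusted p = 0.00996) and 0.72 ± 0.18 against inflamed mucosa (adjusted p = 0.0304). The second call was lost without adenocarcinoma 6 (0.65, adjusted p = 0.0773) and without any 1 of the 4 inflamed arrays (0.71 to 0.73, adjusted p = 0.0539 to 0.0783).

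**Figure D4:**
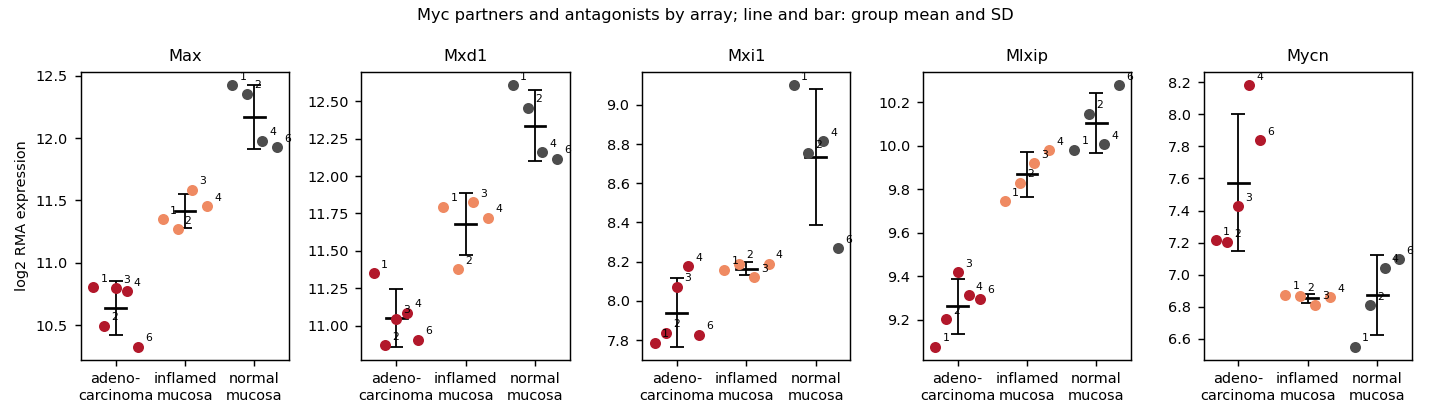
Log2 level (vertical axes, not starting at 0) of Max, Mxd1, Mxi1, Mlxip and Mycn on each array, in the adenocarcinomas, inflamed mucosa and normal mucosa from left to right, with replicate numbers, and line and bar for the group mean and SD (n = 5, 4 and 4). Max averages 10.64 in tumour, 11.41 in inflamed mucosa and 12.17 in normal mucosa, while the Mycn tumours stand above both other groups.

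Further genes of the same pathway, from lists that exclude the 38, were set beside them. These lists too were chosen with earlier results of these data known. Against normal mucosa 16.4% of all genes were higher and 19.4% lower in tumour, and 13.7% and 13% in inflamed mucosa. Of 47 other small subunit factors, 31 were higher and 1 was lower in tumour than in normal mucosa (median 0.55), and 26 were higher and 1 lower in inflamed mucosa (median 0.42). Pno1, which holds Nob1 in check before the final cut, was measured at 9.24, 9.36, 9.16, 9.24 and 9.32 in adenocarcinomas 1, 2, 3, 4 and 6, 8.90, 8.69, 8.46 and 8.70 in inflamed mucosa 1, 2, 3 and 4, and 7.83, 7.81, 8.26 and 7.93 in normal mucosa 1, 2, 4 and 6. The 3 groups did not overlap, and the tumour difference of Pno1 was 1.31 ± 0.11 against normal mucosa (adjusted p = 1.11e-06) and 0.58 ± 0.11 against inflamed mucosa (adjusted p = 0.00543). Of 44 other large subunit factors, 31 were higher and 1 was lower in tumour (median 0.58), and 27 were higher and 1 lower in inflamed mucosa (median 0.42). With arrays centred on their median, 17 small and 16 large subunit factors were higher in inflamed mucosa, where 9.4% of all genes were. In tumour the centred counts were 25 and 29, where 12.5% of all genes were higher. Las1l, part of a nuclease complex that cuts the spacer beside the large subunit RNA, differed in tumour by 1.21 ± 0.16 from normal mucosa (adjusted p = 7.65e-05) and by 0.75 ± 0.16 from inflamed mucosa (adjusted p = 0.0115). The exception was Sbds, which helps to release an anti-joining factor from the new subunit, at 9.62, 9.54, 9.55, 9.51 and 9.62 in adenocarcinomas 1, 2, 3, 4 and 6, 9.998, 9.63, 9.47 and 9.73 in inflamed mucosa 1, 2, 3 and 4, and 10.33, 10.66, 10.40 and 9.86 in normal mucosa 1, 2, 4 and 6. Sbds was lower in all tumours than in all normal samples (-0.74 ± 0.14, adjusted p = 0.00112) and lower in inflamed mucosa, where the groups overlapped (-0.60 ± 0.15, adjusted p = 0.00907).

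Of 10 other snoRNP genes, 6 were higher in tumour and 5 in inflamed mucosa than in normal mucosa, where 16.4% and 13.7% of all genes were, and 0 were lower. Nop10, the fourth core protein of box H/ACA particles beside Dkc1, Gar1 and Nhp2, was measured at 10.51, 10.59, 10.46, 10.62 and 10.56 in adenocarcinomas 1, 2, 3, 4 and 6, 10.18, 10.20, 10.09 and 10.07 in inflamed mucosa 1, 2, 3 and 4, and 9.24, 8.996, 9.58 and 9.40 in normal mucosa 1, 2, 4 and 6, with no overlap between any of the groups. It was higher than normal by 1.25 ± 0.10 in tumour (adjusted p = 1.03e-06) and by 0.83 ± 0.11 in inflamed mucosa (adjusted p = 9.5e-05). Of 10 other RNA polymerase I genes, 4 were higher and 1 was lower in tumour (median 0.32) and 3 were higher in inflamed mucosa (median 0.11). The initiation factor Rrn3 was higher in tumour by 0.77 ± 0.15 (adjusted p = 0.00119) and in inflamed mucosa by 0.64 ± 0.15 (adjusted p = 0.00819), and the termination factor Ttf1 was lower in tumour (-0.22 ± 0.08, adjusted p = 0.0454). The Ttf1 call was lost on leaving out any 1 of 9 of the 13 arrays (-0.22 to -0.19) and in 4 other alternatives (-0.22 to -0.17), while centring gave -0.35 (adjusted p = 0.00329).

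Ribosomal protein genes were called higher than in normal mucosa for 40 of 51 in tumour (median 0.52) and for 15 of 51 in inflamed mucosa (median 0.35), with 0 lower. Over all genes 16.4% and 13.7% were higher. The inflamed count ranged from 2, with arrays centred on their median, to 29, with a fixed replicate block. Rps29 differed in tumour by 1.06 ± 0.13 from normal mucosa (adjusted p = 3.44e-05) and by 0.57 ± 0.13 from inflamed mucosa (adjusted p = 0.016), of which the second call was lost without inflamed mucosa 4 (0.51, adjusted p = 0.0602). Rpl6 was higher by 0.57 ± 0.09 in tumour (adjusted p = 0.000224) and 0.54 ± 0.09 in inflamed mucosa (adjusted p = 0.000889), where centring gave 0.35 (adjusted p = 0.0117). These genes have many near-identical pseudogenes that can share probes, so single values are uncertain.

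Between tumour and inflamed mucosa, 2 of the 47 small subunit factors, 4 of the 44 large subunit factors, 1 of the 10 snoRNP genes and 1 of the 51 ribosomal protein genes were called, all higher in tumour, where 2.91% of all genes were, and 0 of the 10 RNA polymerase I genes. The counts for small subunit factors and ribosomal proteins lie near that share. Without adenocarcinoma 2 the large subunit count was 1 and the snoRNP count 0. With the random replicate block the counts were 4, 4, 1, 4 and 1, and with the fixed block 1, 3, 0, 1 and 0, in the order given. The large subunit genes Surf6 and Mrto4, the small subunit gene Nop9 and the snoRNP gene Nop10 lost their calls in 6, 5, 5 and 7 of 25 alternatives.

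Of 31 further genes known as Myc targets in metabolism and growth, 20 were higher in tumour and 20 in inflamed mucosa than in normal mucosa, and 1 and 2 were lower. Over all genes 16.4% and 13.7% were higher, and 19.4% and 13% lower. With arrays centred on their median, 13 of the 31 were higher and 5 lower in inflamed mucosa, where 9.4% and 47.7% of all genes were. Nme1, a nucleoside diphosphate kinase, was higher in tumour by 1.66 ± 0.21 (3.16-fold, adjusted p = 5.46e-05), and Odc1, the first enzyme of polyamine synthesis, by 1.25 ± 0.18 (adjusted p = 0.000149). In inflamed mucosa the amino acid transporter Slc7a5 was higher by 1.53 ± 0.25 (adjusted p = 0.000616) and the spermidine synthase Srm by 1.39 ± 0.22 (adjusted p = 0.000523). The glycolytic enzymes Ldha in tumour (-0.28 ± 0.07, adjusted p = 0.00963) and Pkm in inflamed mucosa (-0.51 ± 0.12, adjusted p = 0.00749) were lower than normal. After cyclic loess the tumour call of Ldha was lost (-0.14, adjusted p = 0.0739), and the inflamed call of Ldha was lost in 8 of 25 alternatives, with differences of -0.43 to -0.13 over the 25.

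**Figure D5:**
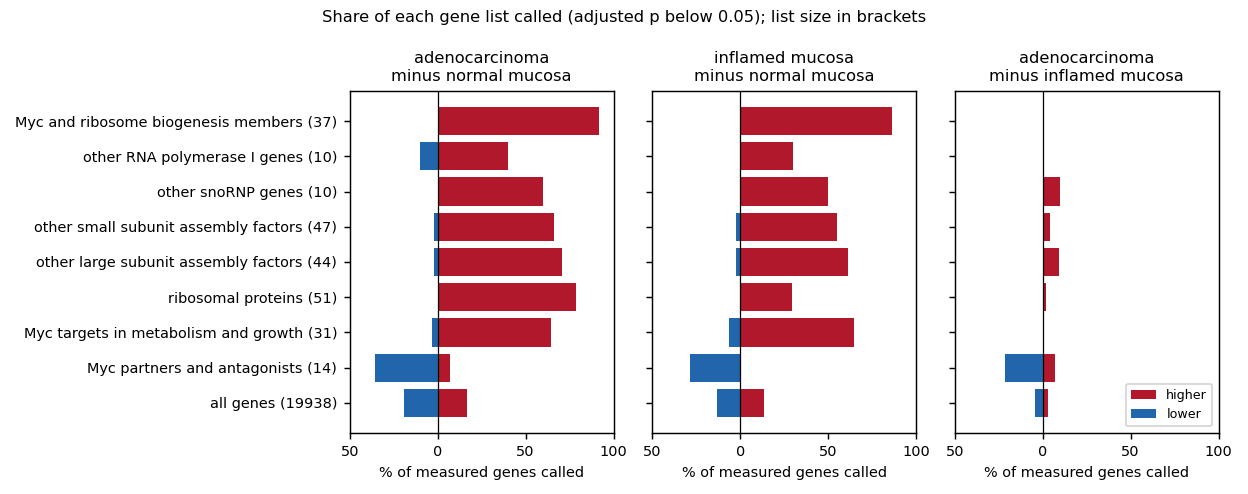
Percent of the measured genes of each list (size in brackets) called higher (red, to the right) or lower (blue, to the left) in the 3 comparisons. The 37 Myc and ribosome biogenesis genes reach 91.9% and 86.5% higher in the comparisons with normal mucosa, where all genes reach 16.4% and 13.7%, and the 14 Myc partners and antagonists are the list plotted here with more genes lower than higher in each panel.

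Of 21 proliferation genes measured, 18 were higher in tumour and 11 in inflamed mucosa than in normal mucosa, where 16.4% and 13.7% of all genes were. Between tumour and inflamed mucosa 0 passed, where 2.91% of all genes were higher and 4.21% lower, so few were due. Their mean lay between 8.54 and 8.80 in the adenocarcinomas, between 8.12 and 8.64 in inflamed mucosa and between 7.02 and 8.24 in normal mucosa, and the lowest value was that of normal mucosa 2. The arrays did not fall in the same order as for the 37 genes. Adenocarcinoma 2, which had the highest mean of the 37, had a proliferation mean of 8.61, and the lowest inflamed array was inflamed mucosa 2 for proliferation and inflamed mucosa 3 for the 37. Without normal mucosa 2, 11 proliferation genes were higher in tumour than in normal mucosa. Mki67, a marker of cycling cells, was higher in tumour by 1.29 ± 0.39 (adjusted p = 0.02), and its inflamed difference of 1.05 ± 0.41 did not pass (adjusted p = 0.0718). The part of the number of cycling cells in the values of Myc and of the ribosome biogenesis genes was not tested.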

How the data were processed

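The 13 RNA samples of mouse rectum were hybridised, 1 per array, to Affymetrix Mouse Gene 1.0 ST arrays. The authors deposited 1 normalised log2 value per transcript cluster and array; per the submitters' processing notes the tools were RMA, Expression Console 1.1, Command Console 2.0 and Partek. No genome build of the array is given in the sources used here. The 35556 clusters were named from the 2016 platform annotation, which gives a single gene to 21789 and several to 1621 and does not cover 12146. Entrez numbers updated 21698 of the names. This gave 19938 genes, 999 of them with more than 1 cluster, of which that with the highest mean was kept.

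A linear model with 3 groups was fitted to all genes with limma 3.58.1 in R 4.3.3, with moderated variances and Benjamini-Hochberg adjustment over all genes, and tested on simulated data first. For arrays, the number of samples (5, 4 and 4) limits the precision. The members and lists were chosen with earlier results of these data known. Every member is described. From each pathway list up to 3 genes with the smallest adjusted p per direction and comparison could be named, from cell type lists only counts, ranges and Acta2, Myh11, Epcam and Mki67, and promoter matches for CACGTG and those of Myc, Nop56 and Nop58. Of 345 listed symbols, 312 were measured.

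Tumour and inflamed arrays share numbers, sex and age in the labels. Deviations from group means correlated within each numbered pair (0.319, 0.198, 0.199 and 0.387), so the pairs were also fitted as a random block beside the unpaired 3-group model. In the random block, normal arrays of the same number were not taken as pairs (-0.126 to 0.0413). The fixed block did group normal arrays with the tumour and inflamed arrays of their number, although these correlations were low. Alternatives were centring, cyclic loess, a filter on dim genes, 2 groups alone, a replicate block, sex, age, the mean of clusters, variance trend, array weights and each array left out. Second clusters of Wdr12, Ddx18 and Fbl, and the alternatives for the other lists, were added after seeing the data. All columns were used. Xist, the only sex-linked transcript checked, matched the sex labels on 13 of 13 arrays.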

Additional observations from a re-analysis of the deposited data

Results flagged for a closer look

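In groups of 4 or 5 arrays, a sample was singled out where its gap to the nearest other sample, divided by the range of its group, exceeded Dixon's 95% critical value. Chance alone does this in about 1 in 20 groups, and 9 of 168 sets of values were singled out here, 4 of them among 111 sets of the 37 genes. Gar1 in inflamed mucosa 3 was at 8.85, with 9.503 as the nearest other inflamed array. Adenocarcinoma 6 was low for Noc4l (8.22, nearest 8.32), for Nop2 (8.64, nearest 9.05), and high for the mean of the ribosomal protein genes (11.44, nearest 11.24). Inflamed mucosa 1 was high for Nop2 (9.28, nearest 8.99) and low for the mean of macrophage genes (8.61, nearest 9.11). The mean of proliferation genes in inflamed mucosa 2 was 8.12, with 8.61 as the nearest. Normal mucosa 1 was high for the means of neutrophil genes (6.93, nearest 5.78) and of T and NK cell genes (7.41, nearest 5.98).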

How the results depend on the processing

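The number of the 37 genes called higher in tumour than in normal mucosa was 32 to 35 under the 12 alternatives other than leaving out an array, and 31 to 35 with 1 array left out. In inflamed against normal mucosa it was 25 to 32, and 26 to 32 with 1 array left out. None was called lower, and no direction of a called gene reversed, under any of these settings. The replicate block as a fixed term, which also groups normal arrays with the others of their number, gave 32 and 27 genes, and 0 between tumour and inflamed mucosa. Between tumour and inflamed mucosa, where 0 were called, the 2 groups fitted alone gave 1, the pairs as a random replicate block gave 3, array weights gave 5, and leaving out 1 array gave 0 to 1. Over all genes, 3266 were higher and 3867 lower in tumour than in normal mucosa, against 2491 and 8612 with centred arrays and 3400 and 2911 after cyclic loess. In inflamed against normal mucosa these were 2730 and 2592, against 1875 and 9510 centred and 2939 and 2053 after loess, and 3524 in all without inflamed mucosa 2. Between tumour and inflamed mucosa 1420 genes were called, against 2279 with the random replicate block, 2296 with array weights, 775 without inflamed mucosa 2 and 857 without inflamed mucosa 4. The cause of these shifts was not tested. The filter on dim genes left 14953 genes, with all 37 among them. Precision rests on 4 or 5 arrays a group, and no array shows how far disease and tissue collection each contribute.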
